A study of Mus musculus with 6 samples.

Results

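The enzymes that write, copy, oxidize and read out DNA methylation, and the catalytic and core subunits of Polycomb repressive complex 2, were followed from a mouse ovarian surface epithelial cell line to its spontaneously transformed derivative. The set comprises 10 genes: *Dnmt1*, *Dnmt3a*, *Dnmt3b*, *Uhrf1*, *Tet1*, *Tet2*, *Tet3*, *Ezh1*, *Ezh2* and *Suz12*. Of these, 9 had a row under their symbol among the 20405 genes of the expression table, carried by 11 probe sets, because *Tet1* had 3. *Tet3* was not analysed here. Where a gene had several probe sets, the one with the highest mean over the 6 arrays stood for the gene.

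M0505 is a line of ovarian surface epithelium (OSE) from FVB/N mice. STOSE cells arose from M0505 cells by continual passage in culture, with no oncogene introduced. The study describes the M0505 cells of its expression comparison as early passage, so line and time in culture cannot be told apart. Both lines were grown in the same medium, with no further treatment, and total RNA of 3 M0505 and 3 STOSE samples, labelled as biological replicates, was hybridized to Affymetrix Mouse Gene ST arrays. Values are log2 intensities after robust multi-array average (RMA) normalization, so a difference of 1 is a 2-fold difference. Each condition is 1 cell line, and the labels give neither the animals of origin nor the passage of the samples, so that the p-values measure only the spread between these samples, which may be technical. In the following text a gene "rose" or "fell" in STOSE cells if its adjusted p was below 0.05 (limma, Benjamini-Hochberg over all genes), and it was "called" if it also differed by at least 2-fold.

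DNMT1 copies methylation of CpG sites onto the new strand after DNA replication, and UHRF1 recruits it to hemimethylated sites. DNMT3A and DNMT3B methylate sites that carried no mark before. The TET proteins oxidize methylcytosine, which opens the way to its removal. EZH2 and EZH1 are alternative catalytic subunits of Polycomb repressive complex 2 (PRC2), which methylates lysine 27 of histone H3 (H3K27) at silenced genes, and SUZ12 is a core subunit on which the complex depends. EZH2 is typical of dividing cells and EZH1 of resting cells, and *Uhrf1*, *Dnmt1* and *Ezh2* are known as genes whose transcription goes with the cell cycle through E2F transcription factors.

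Promoters of members are shown because E2F-type letters were present in 4 of the 5 members that rose in STOSE cells (not in *Dnmt3b*) and in 0 of the 3 that fell, a description with no test. The consensus TTTSSCGC, in which S is C or G, was searched as TTTCCCGC, TTTCGCGC, TTTGCCGC and TTTGGCGC and as their reverse complements GCGGGAAA, GCGCGAAA, GCGGCAAA and GCGCCAAA. The windows were 300 bases long, from 250 bases before to 50 bases after each RefSeq start (build GRCm38.p6), and the search was chosen after the expression values were seen. All 9 members had a window. The letters were present in a window of *Uhrf1*, *Dnmt1*, *Ezh2* and *Suz12* (4 of 9 members), and in none of those of *Dnmt3a*, *Dnmt3b*, *Tet1*, *Tet2* and *Ezh1*. *Dnmt1* and *Dnmt3a* had 3 windows each, *Uhrf1* had 2 and every other member 1, so the members were not searched equally. They were present in 2.26% of the 32851 windows of all RefSeq genes, in 3.43% of the 13625 genes of the array table that had a window, and in 11 of the 24 DNA replication genes that had one. The 4 members with the letters and the 2 called members without them are printed 5′ to 3′ on the strand of the gene, with the matching letters in capitals. Each run ends at the base before the start, except that of *Ezh2*, which goes on for 20 bases because its match lies just after the start.
*Uhrf1*, chr17:56304063-56304312, plus strand: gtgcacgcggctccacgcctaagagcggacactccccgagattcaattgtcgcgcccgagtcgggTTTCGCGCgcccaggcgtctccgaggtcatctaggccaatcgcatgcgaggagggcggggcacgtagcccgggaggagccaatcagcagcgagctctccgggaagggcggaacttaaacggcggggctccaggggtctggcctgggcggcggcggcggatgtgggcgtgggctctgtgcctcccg
*Dnmt1*, chr9:20952624-20952873, minus strand: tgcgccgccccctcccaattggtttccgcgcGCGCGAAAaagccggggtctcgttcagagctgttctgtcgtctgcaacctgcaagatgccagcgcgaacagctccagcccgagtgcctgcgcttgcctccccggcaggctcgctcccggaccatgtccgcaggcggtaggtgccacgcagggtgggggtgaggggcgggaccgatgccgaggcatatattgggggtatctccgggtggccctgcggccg
*Ezh2*, chr6:47595011-47595280, minus strand: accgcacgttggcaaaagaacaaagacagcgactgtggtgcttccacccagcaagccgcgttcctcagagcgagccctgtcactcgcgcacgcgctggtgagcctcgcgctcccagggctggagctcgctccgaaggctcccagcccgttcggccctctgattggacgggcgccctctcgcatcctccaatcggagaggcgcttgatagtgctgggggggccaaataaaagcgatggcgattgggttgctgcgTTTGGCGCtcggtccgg
*Suz12*, chr11:79992856-79993105, plus strand: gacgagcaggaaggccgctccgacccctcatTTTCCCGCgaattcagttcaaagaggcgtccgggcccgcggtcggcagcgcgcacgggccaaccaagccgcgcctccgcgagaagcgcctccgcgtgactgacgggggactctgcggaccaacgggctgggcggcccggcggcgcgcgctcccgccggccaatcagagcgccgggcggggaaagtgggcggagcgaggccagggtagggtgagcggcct
*Tet1*, chr10:62887325-62887574, minus strand: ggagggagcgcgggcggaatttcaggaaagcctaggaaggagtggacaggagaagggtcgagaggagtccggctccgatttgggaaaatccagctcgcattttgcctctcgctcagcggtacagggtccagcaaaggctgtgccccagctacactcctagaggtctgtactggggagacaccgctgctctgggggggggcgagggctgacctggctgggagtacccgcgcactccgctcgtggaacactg
*Ezh1*, chr11:101226464-101226713, minus strand: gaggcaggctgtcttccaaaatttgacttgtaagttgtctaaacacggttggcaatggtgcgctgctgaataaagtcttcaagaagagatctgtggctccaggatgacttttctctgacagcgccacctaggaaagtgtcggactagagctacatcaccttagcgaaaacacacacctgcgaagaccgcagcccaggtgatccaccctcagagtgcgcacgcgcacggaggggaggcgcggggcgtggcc
The match of *Uhrf1* lay at positions -185 to -178 from the start, in the window numbered 2 of its 2. *Dnmt1* held its letters on the opposite strand at positions -219 to -212 of the window numbered 3 of its 3, and again 34 to 41 bases after that start. The other windows of these 2 genes held 0 matches and lie upstream of the matching ones. Both printed runs therefore lie downstream of another start of their gene and may be transcribed from it. The matches of *Ezh2* and *Suz12* lay 4 to 11 bases after the start and at positions -219 to -212, in this order. The windows of the members were also rich in CpG, the dinucleotide that DNMT enzymes methylate, with a median of 30.5 per window (2 to 57) against 7 over all windows, and the lowest, the window numbered 1 of *Dnmt1*, lay under that median. Every searched run contains a CpG, so CpG content bears on how often a match occurs. The shares given for all genes were not matched for CpG content and are not a like comparison for the members. A match is a run of letters and not a measured binding site, and methylation of these promoters was not measured.

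The arrays of a line resembled each other (Pearson's r across genes 0.997 to 0.999) more than those of the other line (0.943 to 0.950). Probe sets of olfactory receptor genes, taken as silent in these cells, had a 95th percentile of 4.74, which is called background below. Of 10 OSE markers, 9 lay above background on every array of both lines and *Lhx9* on 1 of 3 arrays in each. Nevertheless, 9 of the 10 fell in STOSE cells and 4 were called, and with centred arrays 7 fell and 3 were called. Of 6 leukocyte markers 5, and of 5 oocyte markers 4, had line means below background in both lines, *Ptprc* with means of 3.79 and 3.81 among them. The summed log2 value of the 6 granulosa markers was 37.6 to 38.1 in M0505 and 32.6 to 34.0 in STOSE cells, and that of 5 endothelial markers 29.0 to 29.5 and 24.0 to 24.1, with 1 marker called in each list, *Inha* and *Kdr*. Of all genes, 12.5% were called, 4.9% higher and 7.59% lower in STOSE cells. When each array was centred on its own median, the median difference of all genes moved by 0.20 on the log2 scale and 55.5% of the calls were higher, against 39.2% before.

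Of the 9 members, 1 was called higher in STOSE cells (*Uhrf1*) and 2 lower (*Tet1* and *Ezh1*), beside the 12.5% of all genes that were called. With no fold threshold, 5 members rose (*Uhrf1*, *Dnmt1*, *Suz12*, *Ezh2* and *Dnmt3b*), 3 fell (*Tet1*, *Ezh1* and *Tet2*) and *Dnmt3a* did neither. Over all genes, 31.6% rose and 24.8% fell, 56.5% together. The arrays of the lines did not overlap for 8 members, beside 64.6% of all genes, so that a lack of overlap was common. Within all genes the differences had 5th and 95th percentiles of -1.31 and 0.99 on the log2 scale. *Uhrf1* and *Tet1* lay outside this range, and the other 7 members inside it. RNA was taken from whole cultures, in which a change in the RNA per cell and a change in the share of cells that hold it cannot be told apart.

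**Figure D1:**
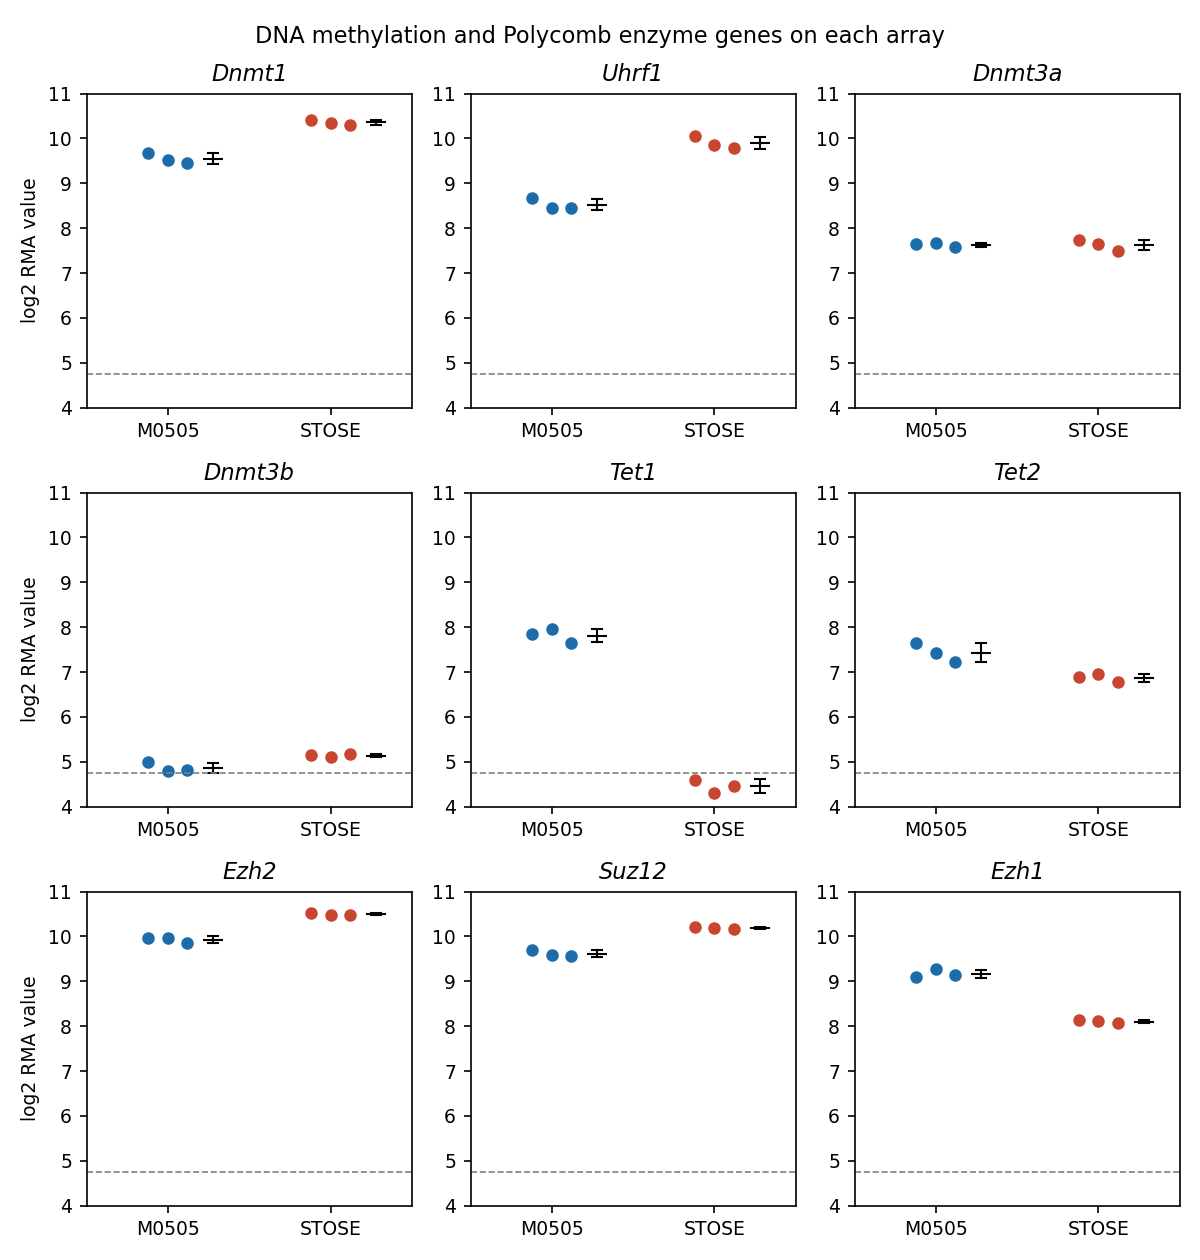
The log2 RMA value of each member on each array, with 3 M0505 (blue) and 3 STOSE (red) arrays as points, the mean and SD of each line in black and background (4.74) as a dashed line. The STOSE points of *Uhrf1* lie above and those of *Tet1* and *Ezh1* below all M0505 points, and those of *Tet1* lie under background.

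The maintenance pair rose together. *Uhrf1*, which recognizes hemimethylated CpG, read 8.67, 8.45 and 8.45 in the 3 M0505 samples and 10.05, 9.86 and 9.79 in the 3 STOSE samples. All STOSE samples were higher than all M0505 samples, with a gap of 1.12 between the nearest arrays. The means were 8.52 ± 0.13 and 9.90 ± 0.13 (SD, n = 3), a rise of 1.38 on the log2 scale (SE 0.09, 95% interval 1.17 to 1.59), or 2.60-fold (adjusted p = 4.45e-06). This was the largest rise of the 9 members, and 97.7% of all genes had a lower difference.

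*Dnmt1*, the maintenance methyltransferase, read 9.68, 9.51 and 9.45 in M0505 and 10.42, 10.35 and 10.30 in STOSE samples. The groups were apart by 0.62 at their nearest arrays. Its rise of 0.81 (SE 0.08, 95% interval 0.64 to 0.98), or 1.75-fold, passed the test (adjusted p = 3.05e-05) but stayed under 2-fold. Centring of each array on its median took it to 1.01 and over the 2-fold threshold. *Uhrf1* rose more than *Dnmt1* on the same arrays. The log2 value of *Uhrf1* minus that of *Dnmt1* went from -1.02 ± 0.03 to -0.46 ± 0.08 (SD, n = 3), a change of 0.57 (SE 0.05) with no overlap of the arrays (two-sided exact permutation p = 0.1, the smallest that 3 against 3 arrays allow, also 0.1 after adjustment over 5 pairs).

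Of 8 other genes of methylation maintenance and of methyl donor metabolism, 4 rose, 0 fell and 4 did neither, with a median difference of 0.21, against 0.08 for all genes. With centred arrays 7 rose and 2 were called, and the medians were 0.41 and 0.28. *Hells*, a chromatin remodeler needed for full DNA methylation, was the only one called before centring. Its values of 8.23, 8.07 and 8.14 in M0505 and 9.52, 9.37 and 9.41 in STOSE samples did not overlap, and it rose by 1.29 (SE 0.07), or 2.44-fold (adjusted p = 1.24e-06). *Ahcy*, which clears the product that inhibits methyltransferases, rose by 0.53 (adjusted p = 6.38e-05). *Uhrf2*, the paralog of *Uhrf1*, rose by 0.33 (adjusted p = 0.00197). *Dnmt3l*, the cofactor of the DNMT3 enzymes in germ cells, was below background in both lines.

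The enzymes of de novo methylation moved little. *Dnmt3a* read 7.64, 7.67 and 7.59 in M0505 and 7.73, 7.65 and 7.50 in STOSE samples. The groups overlapped, and their means were 7.63 ± 0.04 and 7.63 ± 0.12 (SD, n = 3). The 95% interval of the difference, -0.17 to 0.16, leaves room for changes of that size in either direction (adjusted p = 0.971), and centring of the arrays gave 0.20 (adjusted p = 0.0244).

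*Dnmt3b* read 5.00, 4.80 and 4.81 in M0505 and 5.15, 5.10 and 5.16 in STOSE samples. The groups were separated by only 0.10, and all values lay just above background. It rose by 0.27 (SE 0.07), or 1.20-fold (adjusted p = 0.0114), and by 0.47 with centred arrays. Relative to *Dnmt3a* on the same arrays, *Dnmt1* changed by 0.81 (SE 0.07) and *Dnmt3b* by 0.27 (SE 0.10), each with the exact permutation p of 0.1 that is the smallest possible.

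*Tet1* had the largest change of the 9 members. It read 7.84, 7.95 and 7.65 in M0505 samples, clearly above background, and 4.60, 4.30 and 4.47 in STOSE samples, all under background. The lowest M0505 and the highest STOSE array were 3.05 apart. The means of 7.81 ± 0.15 and 4.46 ± 0.15 (SD, n = 3) differed by -3.36 (SE 0.10, 95% interval -3.59 to -3.12), a 10.2-fold lower signal in STOSE cells (adjusted p = 5.88e-08). Since the STOSE signal could not be told from background, the fall is at least 8.41-fold, taken against the background level itself. Only 0.745% of all genes had a lower difference.

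The other *Tet1* probe sets fell as well. The first of these read 7.33, 7.17 and 7.08 in M0505 and 4.51, 4.52 and 4.61 in STOSE samples, a difference of -2.65 (adjusted p = 1.35e-07 over all 28944 probe sets). The remaining one read 6.60, 6.11 and 6.48 in M0505 and 3.82, 4.16 and 3.86 in STOSE samples, a difference of -2.45 (adjusted p = 4.27e-06). On all 3 probe sets every STOSE array was under background and every M0505 array above it. Against background the falls of these probe sets were at least 5.46-fold and at least 3.15-fold. The probe sets shared the same 6 RNA samples and are therefore repeated readings of the same RNA.

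*Tet2* fell less. It read 7.64, 7.43 and 7.22 in M0505 and 6.89, 6.95 and 6.77 in STOSE samples, with 0.27 between the nearest arrays and all values above background. It fell by 0.56 on the log2 scale (SE 0.11, 95% interval of the difference -0.81 to -0.31), or 1.48-fold (adjusted p = 0.00220). With centred arrays the difference was -0.36. *Tet1* minus *Tet2* on the same array changed by -2.80 (SE 0.15), and with *Tet1* set to background in STOSE samples its signal fell at least 5.70-fold relative to *Tet2* (exact permutation p = 0.1, the smallest possible, n = 3).

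**Figure D2:**
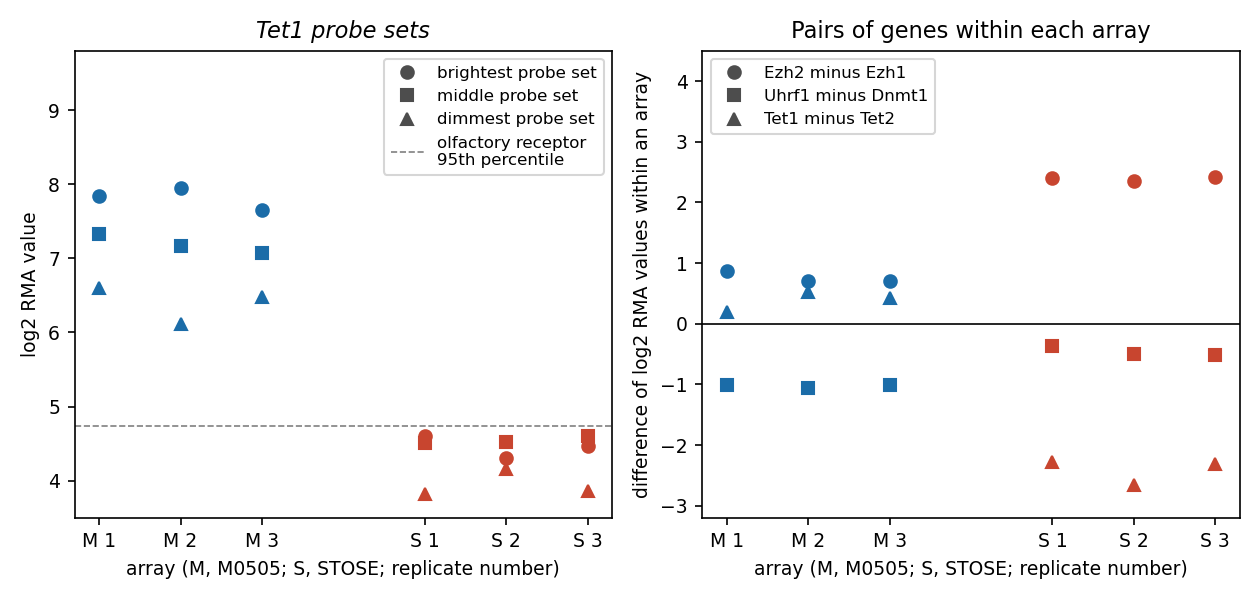
Left, log2 values of the 3 *Tet1* probe sets on each array, with background as a dashed line. Right, the difference of log2 values of 3 member pairs within each array (M0505 blue, STOSE red). All 3 probe sets drop below background in STOSE samples, and *Ezh2* minus *Ezh1* and *Tet1* minus *Tet2* separate the lines in opposite directions.

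Of 13 genes that supply, bind or follow the TET enzymes, including the base excision repair of oxidized methylcytosine, 6 rose, 5 fell and 2 did neither, with 1 called higher and 3 called lower. With centred arrays 8 rose, 5 fell and 2 were called. The isocitrate dehydrogenases, which make the 2-oxoglutarate that TET enzymes use, moved in opposite directions. The cytosolic *Idh1* fell from 11.43, 11.48 and 11.51 to 9.73, 9.99 and 10.22, by 1.49 on the log2 scale (SE 0.11, adjusted p = 9.44e-06), a 2.81-fold fall. The mitochondrial *Idh2* rose from 8.16, 7.68 and 7.90 to 9.51, 9.44 and 9.39, by 1.53 (SE 0.11, adjusted p = 7.67e-06), or 2.89-fold. Neither gene's arrays overlapped between the lines. *Gadd45b* and *Gadd45a*, stress-response genes that have been linked to active demethylation, fell by 1.12 and 1.08 on the log2 scale (adjusted p = 0.000130 and 0.000864). Both were under 2-fold with centred arrays (-0.92 and -0.88), and *Gadd45a* also without M0505 replicate 1 (-0.95), STOSE replicate 2 (-0.98) or STOSE replicate 3 (-0.99). *Tdg*, the glycosylase that excises oxidized methylcytosine, differed by 0.14 (adjusted p = 0.201).

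*Ezh2* and *Suz12* rose while *Ezh1* fell. *Ezh2* read 9.97, 9.97 and 9.85 in M0505 and 10.53, 10.47 and 10.49 in STOSE samples. *Suz12* read 9.70, 9.58 and 9.56 in M0505 and 10.22, 10.18 and 10.17 in STOSE samples. For both genes every STOSE sample was higher than every M0505 sample. *Ezh2* rose by 0.56 (SE 0.06, 95% interval 0.43 to 0.70), or 1.48-fold (adjusted p = 7.05e-05), and *Suz12* by 0.57 (SE 0.06, 95% interval 0.43 to 0.71), or 1.49-fold (adjusted p = 7.02e-05). Neither reached 2-fold, and 88.4% and 88.6% of all genes had lower differences.

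*Ezh1* read 9.10, 9.26 and 9.14 in M0505 and 8.13, 8.12 and 8.06 in STOSE samples. The groups were apart by 0.97. It fell by 1.07 on the log2 scale (SE 0.06, 95% interval of the difference -1.21 to -0.92), or 2.09-fold (adjusted p = 2.52e-06). The interval includes 2-fold, and with centred arrays the difference was -0.87 and the gene was no longer called. *Ezh2* minus *Ezh1* on the same array went from 0.76 ± 0.10 in M0505 to 2.39 ± 0.04 in STOSE samples (SD, n = 3). The change of 1.63 (SE 0.06) is a 3.10-fold shift of the ratio of signals toward *Ezh2* (exact permutation p = 0.1, the smallest possible). Because both genes are read on the same array, this shift is the same under any centring of the arrays. The level of one probe set cannot be set against that of another, so that the ratio itself does not say which subunit was more abundant.

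**Figure D3:**
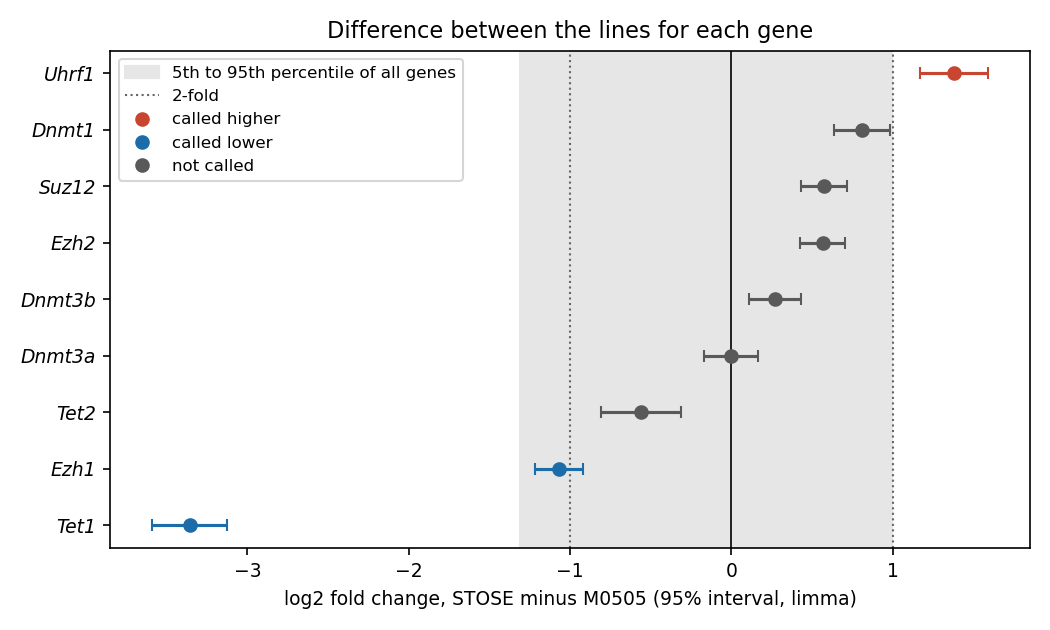
The log2 difference STOSE minus M0505 of each member on the horizontal axis with its 95% interval, with dotted lines at 2-fold and the 5th to 95th percentile of all genes shaded. *Uhrf1* (1.38) and *Tet1* (-3.36) lie outside the shading, and the interval of *Ezh1* crosses the 2-fold line.

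Of 8 further PRC2 subunits, 3 rose, 4 fell and 1 did neither, with a median of -0.31, and with centred arrays 4 rose and 4 fell, with a median of -0.11. The core subunits *Eed*, which reads the mark that PRC2 makes, and *Rbbp4*, a histone chaperone, rose by 0.67 and 0.54 (adjusted p = 0.000294 and 0.000415), with 0.41 for *Eed* when its probe sets were averaged, while *Rbbp7*, the paralog of *Rbbp4*, fell by 0.60 on the log2 scale (adjusted p = 6.73e-05). *Jarid2*, an accessory subunit that helps to target PRC2, was the only one of the 8 that was called. It read 9.07, 9.05 and 8.97 in M0505 and 7.58, 7.69 and 7.62 in STOSE samples, and fell by 1.40 on the log2 scale (SE 0.06, adjusted p = 4.07e-07), or 2.63-fold. *Aebp2*, which joins the same form of PRC2 as *Jarid2*, rose by 0.22 (adjusted p = 0.0182), by 0.42 with centred arrays, and missed the threshold without M0505 replicate 2 (adjusted p = 0.0576), M0505 replicate 3 (adjusted p = 0.0677) or STOSE replicate 2 (adjusted p = 0.0504). Of the Polycomb-like subunits, *Phf1* and *Phf19* fell by 0.86 and 0.77 on the log2 scale (adjusted p = 8.05e-05 and 3.95e-05), and *Mtf2* differed by -0.01 (adjusted p = 0.872).

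Polycomb repressive complex 1 (PRC1) ubiquitinates histone H2A at many of the same genes. Of 22 PRC1 genes 21 were measured, of which 8 rose, 4 fell and 9 did neither, with a median of 0.14. Among the 4 that fell, *Bcor* had means of 4.70 in M0505 and 3.73 in STOSE samples, both below background. With centred arrays 13 rose and 2 fell, with a median of 0.34. Only *Pcgf5*, a subunit of a variant complex, was called. It read 8.17, 8.27 and 8.23 in M0505 and 9.33, 9.31 and 9.28 in STOSE samples, a rise of 1.08 (SE 0.06) or 2.11-fold (adjusted p = 1.23e-06), and of 0.78 when its probe sets were averaged. The catalytic subunit *Rnf2* fell by 0.51 on the log2 scale (adjusted p = 7.19e-05), and its paralog *Ring1* differed by -0.05 (adjusted p = 0.453). *Bmi1*, best known for repression of the *Cdkn2a* locus, differed by 0.14 (adjusted p = 0.102). Of 5 genes that remove the marks of PRC2 and PRC1, 2 rose, 1 fell and 2 did neither, and 0 were called. The H3K27 demethylase *Kdm6a* fell by 0.37 on the log2 scale (adjusted p = 0.000874) and *Kdm6b* differed by -0.12 (adjusted p = 0.284). The median of these 5 genes was -0.06, and 0.14 with centred arrays.

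The families of methyl-CpG readers, proteins that bind methylated DNA or carry the same domain, moved mostly downward. Of 10 such genes, 1 rose, 7 fell and 2 did neither, with a median of -0.53, and 2 were called. These counts do not separate proteins that bind methylated DNA from those that only carry the domain. With centred arrays 3 rose and 6 fell, the median was -0.33, and 1 was called. *Mbd6* read 9.27, 9.12 and 8.64 in M0505 and 8.04, 7.54 and 7.43 in STOSE samples. It fell by 1.34 on the log2 scale (SE 0.19, adjusted p = 0.000448), with a wide spread in both lines. Although it belongs to the family by its domain, MBD6 is not known to bind methylated DNA. *Zbtb4*, a zinc finger repressor, read 7.84, 8.23 and 8.003 in M0505 and 6.78, 6.95 and 6.94 in STOSE samples, and fell by 1.14 on the log2 scale (SE 0.10, adjusted p = 2.54e-05), with -0.94 after centring of the arrays. The single riser was *Mbd4*, a glycosylase that repairs mismatches at methylated sites (0.41, adjusted p = 0.000681).

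**Figure D4:**
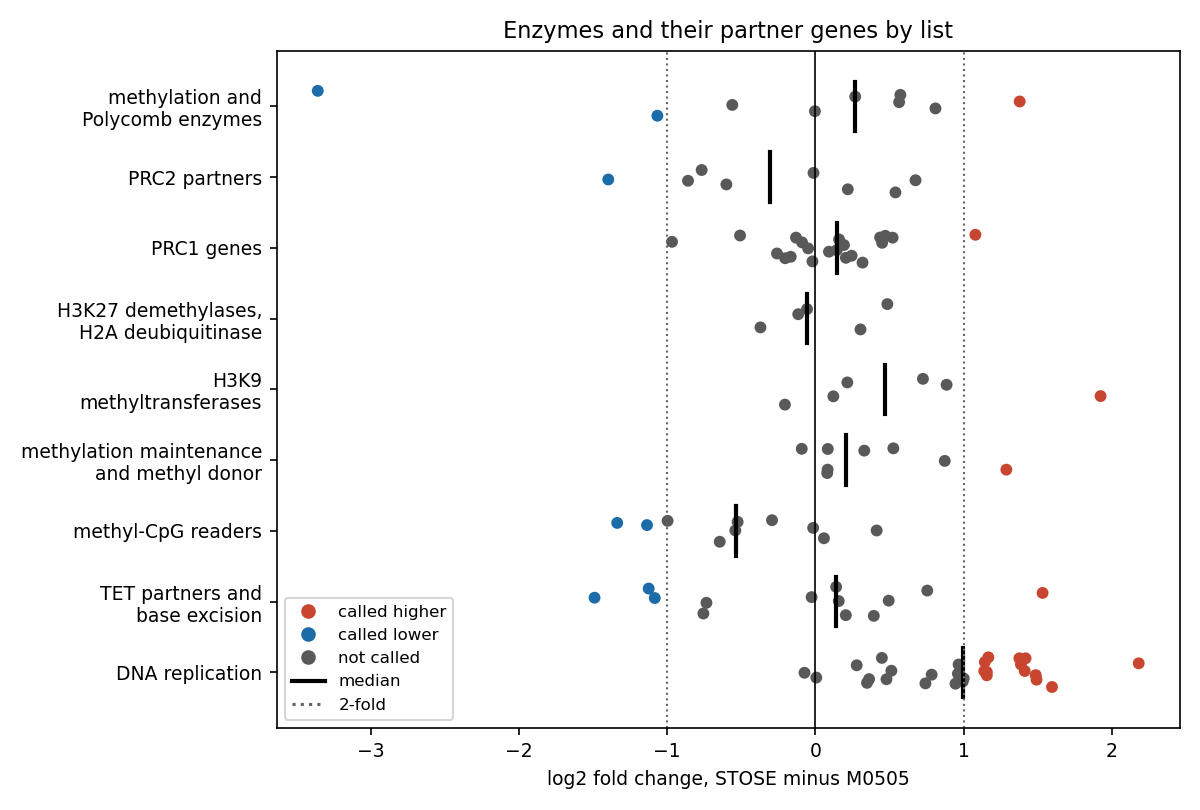
The log2 difference STOSE minus M0505 of each gene of the lists, on the horizontal axis, with the median of each list as a bar, the members as the top row, called genes in color and 2-fold as dotted lines. DNA replication genes lie to the right of 0 with 1 exception, methyl-CpG readers mostly to the left, and *Tet1* lies farther left than any gene of the epigenetic lists.

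Genes of DNA replication rose with the maintenance enzymes. Of 29 such genes, 27 rose, 0 fell and 2 did neither, and 13 were called, with a median of 0.99 and quartiles of 0.51 and 1.38. The 4 with the largest rises were *Orc1l* (2.18, origin recognition), *Gins1* (1.60, the replicative helicase), *Fen1* (1.49, flap removal) and *Cdt1* (1.49, origin licensing). Of the 29, 7 had a larger difference than *Uhrf1*, 19 than *Dnmt1*, and 21 than *Ezh2* and *Suz12*. *Dnmt3b* exceeded 2 of them, and the falling members exceeded 0. The study reported that STOSE cells doubled faster than M0505 cells and held a larger share of cells in S phase. The part of this difference, or of the replication genes' shift, in the rise of the members was not tested.

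The genes of the INK4 locus, the classical Polycomb targets among cell cycle inhibitors, were both lower in STOSE cells. *Cdkn2a* read 7.92, 7.83 and 7.77 in M0505 and 5.09, 5.32 and 5.50 in STOSE samples, and fell by 2.54 on the log2 scale (adjusted p = 3.27e-07). *Cdkn2b* read 9.37, 8.98 and 8.78 in M0505 and 4.93, 5.44 and 5.51 in STOSE samples, and fell by 3.75 on the log2 scale (adjusted p = 8.61e-07). Neither H3K27 methylation nor DNA methylation of this locus was measured here.

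Over the 6 arrays, the genes most like *Uhrf1* were *Polr1b*, a subunit of RNA polymerase I (root mean square difference of the centred log2 values 0.0379), *Chaf1a*, which assembles histones on new DNA (0.0405), and *Taf4b*, a subunit of a general transcription factor (0.0421). Their rises were 1.44, 1.41 and 1.42 against 1.38 for *Uhrf1*, and 111 genes lay within 0.1 of it. *Tet1* had few such neighbours. The nearest were *Slit2*, a secreted guidance factor (0.0933, difference -3.22), *Tmem102* (0.0961, difference -3.38) and *Sykb* (0.103, difference -3.19), and 2 genes lay within 0.1. When probe sets were averaged, *Tmem102* differed by -1.53. With 3 arrays a line, this likeness mostly reflects a difference between the lines of the same size.

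The members were also set against the other genes of their chromosomes. The median difference of all genes on the chromosomes that carry the members ran from -0.05 (chromosome 10, with *Tet1*) to 0.18 (chromosome 3, with *Tet2*). With these medians subtracted, the differences were -3.31 for *Tet1*, -1.18 for *Ezh1*, -0.74 for *Tet2*, 1.28 for *Uhrf1*, 0.76 for *Dnmt1*, 0.48 for *Ezh2*, 0.46 for *Suz12* and 0.19 for *Dnmt3b*, each in its former direction. *Ezh1* and *Suz12* share chromosome 11 and moved in opposite directions. *Dnmt3a*, on chromosome 12, was at -0.10 after subtraction. The study karyotyped both lines and reported, among other changes, loss of chromosome 3 in both and of chromosome 12 in M0505 cells. Copy number of the members was not analysed here, and its part in their differences was not tested.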

How the data were processed

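Gene expression was measured on Affymetrix Mouse Gene ST arrays in 3 M0505 and 3 STOSE samples. The authors normalized the arrays by RMA in Affymetrix Expression Console, per the submitters' processing notes, and deposited log2 values of 28944 probe sets. Software versions, the annotation release and the genome build are not given in the sources used here. RMA assumes like distributions on all arrays, so a global change of RNA content would be removed. The line means and fold changes in the table are the authors' own comparison and were not used. All 6 columns of array values were mapped by name. Probe sets without a symbol were left out of gene tests, and the brightest probe set of each of 1613 genes with several was kept.

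STOSE was compared with M0505 with limma (version 3.58.1 under R 4.3.3; lmFit, then eBayes) without covariates, with Benjamini-Hochberg adjustment over 20405 genes (over 28944 probe sets where single probe sets are given). A gene was called at an adjusted p below 0.05 and at least 2-fold. The code was tested on simulated data. Arrays carry no read depth, and their number sets the precision. Background is the 95th percentile of 1134 olfactory receptor probe sets, exceeded by 69.8% of gene values. Pairs of members were compared by an exact permutation test. The members and lists were chosen with earlier results of these data known, so lists are described by counts and medians. Of 153 list genes, 1 (*Cbx6*) found no row, and older symbols were matched through RefSeq synonyms. *Tet3* is not analysed here, and the results of some single list genes are not reported here. The rule for genes named with values took all members, the called genes of each list (at most the 4 largest), all genes of lists under 3 genes, and the 3 nearest neighbours of the members with the largest rise and fall. Other list genes, such as complex partners and named marker genes, were added after their values were seen. Alternatives were another normalization or centring, filters on dim genes, other uses of probe sets, other tests (the methods' t-test among them), array weights, a replicate block and leaving out each array.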

Additional observations from a re-analysis of the deposited data

How the results depend on the processing

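The direction of *Uhrf1*, *Dnmt1*, *Dnmt3b*, *Ezh2*, *Suz12*, *Tet1*, *Tet2* and *Ezh1* was the same under every alternative in which they were tested. The log2 difference of *Tet1* ran from -3.44 to -2.82, of *Uhrf1* from 1.30 to 1.58 and of *Tet2* from -0.67 to -0.36. With each array centred on its median, 2 members were called higher (*Uhrf1* and *Dnmt1*, 1.01) and 1 lower, *Ezh1* being at -0.87. Of all 20405 genes, 1466 were called higher and 1177 lower with centred arrays, against 1000 and 1548 before centring. All 9 members passed the adjusted p alone with centred arrays. Before centring 56.5% of all genes passed it, and centring moved the median difference of all genes by 0.20. The share of all genes that passed it with centred arrays was not counted. The 9 members, and the list genes that rose or fell with centred arrays, therefore have no share to be set against. The treat test against 2-fold called 1 member lower, with *Ezh1* (-1.07) no longer called, 1499 genes in all (994 of them lower) and 15 genes of the pathway lists, against 26. Without the dimmest 50% of genes, 1 member was called lower, because the filter removed *Tet1*, and *Dnmt3b* with it. The share of all genes called under this filter is not given here, so this member count has no share to be set against. *Dnmt3a* changed sign with further quantile normalization (0.12), with centring (0.20), without M0505 replicate 2 (0.014) and without STOSE replicate 3 (0.061), and the cause was not tested. At 1.5-fold 2 members were called higher, and at 4-fold 1 was called in all, 0 higher and 1 lower. All genes were not counted at 1.5-fold and 4-fold, so these member counts have no share to be set against. Leaving out each array in turn gave 3 called members each time, 2483 to 2656 called genes, and -0.056 (without STOSE replicate 1) to 0.061 (without STOSE replicate 3) for *Dnmt3a*. The labels do not say whether the replicate numbers pair the samples, and this was not tested. Deviations of same-numbered samples correlated at 0.256, 0.042 and 0.249, and those of other pairs at -0.293 to 0.119. The highest of these other pairs was STOSE replicate 2 with M0505 replicate 3, above the value of STOSE replicate 2 with its own number. With the replicate block 3 members and 2549 genes were called, and no call of a member changed. Signal over background limits *Tet1* in STOSE cells, which has only a bound, and *Dnmt3b*, *Dnmt3l*, *Bcor* and the germline genes.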

Other observations

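The methyltransferases of histone H3 lysine 9, a silencing mark that UHRF1 also reads, moved upward in part. Of 6 such genes, 3 rose, 1 fell and 2 did neither, with a median of 0.47. *Suv39h2*, one of a pair of related heterochromatin enzymes, read 5.58, 5.05 and 5.29 in M0505 and 7.32, 7.31 and 7.07 in STOSE samples. Its lines did not overlap, and it rose by 1.92 (SE 0.13), or 3.79-fold (adjusted p = 5.40e-06). The other enzyme of the pair, *Suv39h1*, rose by 0.72 (adjusted p = 0.000155), and *Setdb1*, which silences retroelements, by 0.88 (adjusted p = 3.18e-05), or 1.08 with centred arrays, where it was called. *Ehmt2* fell by 0.21 on the log2 scale (adjusted p = 0.0246). With centred arrays 5 of the 6 rose, 0 fell and the median was 0.67.

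Germline genes that DNA methylation keeps silent in somatic cells stayed near or under background. Of 18 such genes, 17 had means below background in both lines. Of the 18, 3 rose and 2 fell, and with centred arrays 15 rose and 1 fell, at levels mostly under background. The called gene was *Ddx4*, an RNA helicase of germ cells, with means of 3.22 in M0505 and 4.32 in STOSE samples, both below background, for which no fold is given. *Tuba3a*, a testis tubulin, was the exception above background and rose from 5.11 to 5.85 (adjusted p = 0.000178).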
